A study of Arabidopsis thaliana with 29 samples.

Results

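Late embryogenesis abundant (LEA) proteins are small, mostly hydrophilic proteins that accumulate when seeds dry and, for some family members, when leaves meet cold, drought or abscisic acid. They are thought to protect membranes and other proteins during water loss. The genes described here are the 51 LEA protein genes of Arabidopsis thaliana among 33602 genes in the count files, taken as a named family and not by any measured value. By structural class they hold 18 LEA_4 genes, 10 dehydrins, 6 seed maturation protein (SMP) genes, 4 LEA_3, 3 LEA_1, 3 LEA_2, 3 PvLEA18, 2 AtM and 2 LEA_5 genes. From textbook knowledge, 8 of them were placed in a seed group (EM1, EM6, ECP63, ECP31, AT3G22490, M17, M10 and RAB28) and 10 in a stress group (COR15A, COR15B, COR47, ERD10, ERD14, LTI30, RAB18, LEA14, SAG21 and DI21), and the other 33 were left unplaced.

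Polycomb group (PcG) proteins keep genes off outside the stage or tissue that needs them. Polycomb repressive complex 2 (PRC2) writes trimethylation on lysine 27 of histone H3 (H3K27me3), with CLF or SWN as the catalytic subunit in vegetative tissue. AtBMI1 and AtRING1 proteins belong to PRC1, which ubiquitinates histone H2A, and LHP1 is a chromodomain protein that binds H3K27me3. The transcription factors of seed maturation (LEC1, LEC2, FUS3, ABI3 and their partners such as ABI4 and ABI5) are known PcG targets and activate many seed LEA genes, whereas CBF/DREB and ABF factors activate the LEA genes of cold and drought responses.

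RNA was sequenced from 2-week-old plants of the Col ecotype in 14 libraries, 2 for each of 7 groups: the wild type Col-0, clf-29, swn, 1 library each of the LHP1 mutants tfl2-2 and lhp1-6, the double mutants atbmi1a,b and atring1a,b, and the double mutant clf-29swn-21. H3K27me3 chromatin immunoprecipitation sequencing gave 10 peak lists, 1 each for tfl2-2 and lhp1-6 and 2 each for Col-0, clf-29 and the double mutants atbmi1a,b and atring1a,b. H3K27me3 of swn and clf-29swn-21 was not analysed here. All groups were grown in a 16 h light and 8 h dark cycle with no treatment. For RNA this was at 21 °C for replicate 1 and for both LHP1 lines and at 22 °C for replicate 2 and for both swn libraries. For H3K27me3 it was at 21 °C for list 1 of each genotype and for tfl2-2. List 2 and lhp1-6 were at 22 °C, so list number and temperature cannot be told apart. These temperatures are those of the labels, whereas the study's methods give only 22 °C. The labels describe seedlings without roots, whereas the study's methods state that plants of clf-29swn-21 were raised on MS medium and harvested whole while the other genotypes grew on soil, so genotype, medium and organ content cannot be told apart for clf-29swn-21. Nothing in the labels says that the libraries of a group came from separate cultures, and p-values here measure only the spread between these samples.

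To show what distinguishes the upstream DNA of these genes, the 250 bases before the annotated start were searched on both strands for 3 short motifs: the abscisic acid response element core ACGTG (ABRE core), the RY core CATGCA bound by ABI3-type factors, and the C-repeat/drought response core CCGAC (CRT/DRE core) bound by CBF/DREB factors. A palindrome CACGTG counts as 2 ABRE matches, and overlapping RY matches are counted separately. An ABRE core was present in 36 of 51 members (70.6%), against 21.6% of 32834 genes with such a window. The windows of 5 genes are printed because the results turn on these genes, 5′ to 3′ on the gene's own strand in RefSeq's TAIR10.1 assembly, with motif letters in capitals.
EM1: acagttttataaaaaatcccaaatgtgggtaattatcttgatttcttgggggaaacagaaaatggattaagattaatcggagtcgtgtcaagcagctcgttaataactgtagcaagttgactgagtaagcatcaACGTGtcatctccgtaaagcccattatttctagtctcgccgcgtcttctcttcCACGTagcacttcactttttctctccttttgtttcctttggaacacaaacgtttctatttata
EM6: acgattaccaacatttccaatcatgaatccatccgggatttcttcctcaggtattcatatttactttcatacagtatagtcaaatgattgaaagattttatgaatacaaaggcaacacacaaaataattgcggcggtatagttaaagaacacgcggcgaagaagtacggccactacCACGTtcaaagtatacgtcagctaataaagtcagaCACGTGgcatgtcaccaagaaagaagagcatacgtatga
M17: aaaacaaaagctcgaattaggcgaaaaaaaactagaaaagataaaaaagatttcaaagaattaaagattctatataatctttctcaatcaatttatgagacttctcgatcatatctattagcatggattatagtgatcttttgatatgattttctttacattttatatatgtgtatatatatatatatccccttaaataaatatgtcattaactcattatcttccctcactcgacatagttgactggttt
RAB18: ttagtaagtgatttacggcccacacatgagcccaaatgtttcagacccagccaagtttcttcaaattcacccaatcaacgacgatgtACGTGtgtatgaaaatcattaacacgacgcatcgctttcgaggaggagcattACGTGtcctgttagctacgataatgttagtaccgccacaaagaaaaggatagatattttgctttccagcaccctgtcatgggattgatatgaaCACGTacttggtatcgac
COR15A: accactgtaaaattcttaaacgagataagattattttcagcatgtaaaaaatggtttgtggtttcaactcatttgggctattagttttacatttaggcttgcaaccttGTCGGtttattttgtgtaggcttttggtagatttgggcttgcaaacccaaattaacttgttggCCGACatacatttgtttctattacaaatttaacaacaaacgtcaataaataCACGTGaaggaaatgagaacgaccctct
The windows lie at chr3:19214472-19214721 on the plus strand for EM1, chr2:16780369-16780618 on the minus strand for EM6, chr2:17206202-17206451 on the plus strand for M17, chr5:26519448-26519697 on the minus strand for RAB18 and chr2:17712331-17712580 on the minus strand for COR15A. EM1 and EM6, which encode the LEA_5 proteins of mature embryos, held 2 and 3 ABRE matches and neither of the other motifs. The cold-induced chloroplast protein gene COR15A had 2 ABRE and 2 CRT/DRE matches, and the dehydrin gene RAB18, known for its response to abscisic acid, had 3 ABRE matches. No match was found in the window of M17, an AtM gene of the seed group, and this says only that these letters are not in these 250 bases.

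Gene counts ranged from 17277027 to 36205758 per library. CLF was at 37.4 and 27.8 CPM (counts scaled to 1000000 gene counts per library) in the Col-0 libraries, at 0.689 and 0.434 CPM in clf-29 and at 1.72 and 2.60 CPM in clf-29swn-21, and LHP1 was at 27.6 and 34.1 CPM in Col-0, 0 CPM in tfl2-2 and 1.71 CPM in lhp1-6 (edgeR quasi-likelihood test, adjusted p = 0.166). BMI1B fell in atbmi1a,b (adjusted p = 0.0115) and RING1B fell in atring1a,b (adjusted p = 0.0101). Against their labels, SWN was not lower in swn (88.2 and 87.2 CPM against 46.8 and 68.2 CPM in Col-0) or in clf-29swn-21 (131 and 115 CPM), BMI1A was not lower in atbmi1a,b, and RING1A was at 630 and 812 CPM in atring1a,b against 13.9 and 17.8 CPM in Col-0. Counts over a whole gene also take reads from beside an insertion. The study describes a check of genotypes by RNA read coverage along the mutated genes, with reads of RING1A in atring1a,b driven by the insertion, but coverage along a gene was not analysed here, so the names swn, clf-29swn-21, atbmi1a,b and atring1a,b stand for libraries labelled so throughout. The swn libraries were far more alike than any other pair (mean chi-square per gene 1.30, against 15.1 to 280 for the other groups), and the replicate 2 libraries of atring1a,b, atbmi1a,b, Col-0 and clf-29 deviated from replicate 1 together across 19600 genes (r from 0.27 to 0.83 between groups).

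In Col-0 seedlings most of the family was close to silent. By the mean over both Col-0 libraries, 33 members were under 1 CPM (called silent below), 4 were between 1 and 10 CPM (RAB28, AT2G46140, AT3G02480 and UNE15) and 14 were at 10 CPM or more (expressed). The textbook groups fell on different sides of these limits: 7 of the 8 seed genes were silent and RAB28 was low, whereas each of the 10 stress genes was expressed. All 3 LEA_1, both LEA_5 and both AtM genes were silent, and so were 14 of 18 LEA_4 genes, whereas 6 of 10 dehydrins were expressed. Per kilobase of exon, the dehydrin HIRD11 had the highest mean level of the family in Col-0 (624 RPKM, its CPM divided by the exon length in kilobases), followed by the dehydrins ERD10 (347 RPKM), ERD14 (344 RPKM) and COR47 (342 RPKM).

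The Col-0 libraries were not alike for some of these genes. AT1G02820, a LEA_3 gene, was at 51.6 CPM in Col-0 1 and 0.187 CPM in Col-0 2, the widest gap of an expressed member, and RAB18 was at 4.36 and 28.3 CPM. COR15B, a paralog of COR15A whose gene lies 7 bp from it, was at 59.5 and 194 CPM. COR15A was at 179 and 190 CPM. How counting divided reads between these close paralogs was not tested, so their values are uncertain. The summed level of the 33 silent genes was 2.42 and 4.72 CPM in the Col-0 libraries, against 2969 and 4010 CPM for the 14 expressed genes.

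**Figure D1:**
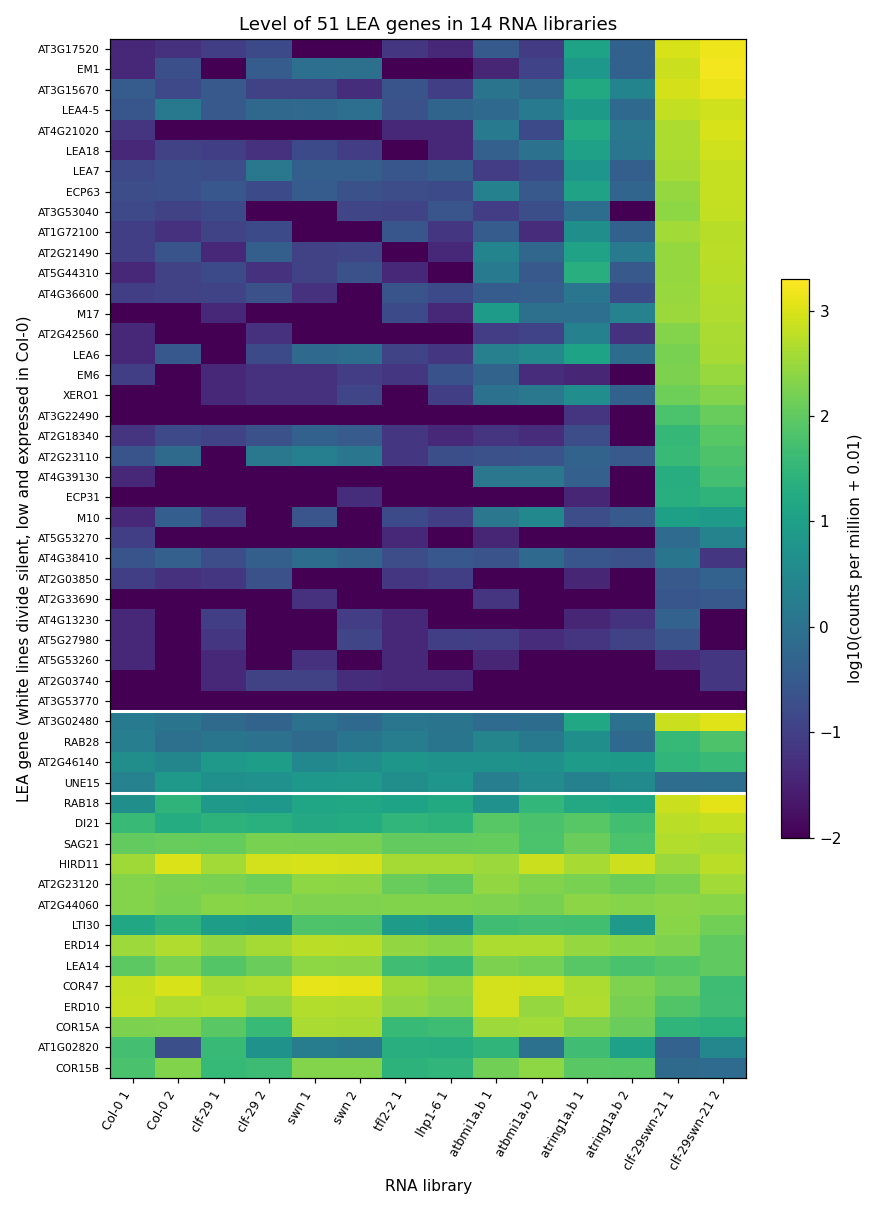
Level of each of the 51 LEA genes (rows) in each of the 14 RNA libraries (columns), as the colour of log10(CPM + 0.01). White lines divide genes silent, low and expressed in Col-0. The upper block is dark in all columns but those of atbmi1a,b, atring1a,b and, most of all, clf-29swn-21, where 25 of 33 silent genes are at 1 CPM or more in each library.

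In the libraries labelled clf-29swn-21 the seed LEA genes stood at high levels and several cold-induced ones were lower than in Col-0. Of the 44 members that passed the filter on low counts, 32 rose and 6 fell in clf-29swn-21 against Col-0 (edgeR quasi-likelihood test on all genes, absolute log2 fold change above 1 and Benjamini-Hochberg adjusted p under 0.05). Among all 22060 genes tested, 13.8% rose and 13.0% fell by the same rule. The study's own criterion, an absolute log2 fold change above 1 with unadjusted p under 0.05, called the same numbers of members, against 16.3% and 15.6% of all genes. The median log2 fold change was 9.20 over the 44 tested members, or 8.95 with the 4 genes that had no count in Col-0 set at the bound that 3 counts allow, against 0.01 over all tested genes.

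Which members were tested depends on clf-29swn-21 itself. Without its libraries 37 members passed the filter, and EM6, AT3G22490, ECP31, AT2G42560, AT2G18340, AT3G53040 and AT5G53270 passed only through them, so they had to be higher there. They are counted among the 32 that rose and in the median. Their rise is given as description, without a p-value of this comparison. With the atring1a,b libraries left out as well, 33 members passed. AT1G72100, AT3G17520, AT4G21020 and AT5G44310 thus passed only through clf-29swn-21 and atring1a,b. Their rise in these groups is also given as description. The 7 members not tested were AT2G03740, AT2G03850, AT2G33690, AT4G13230, AT5G27980, AT5G53260 and AT3G53770, the last of which had no read in any library. These 7 genes stayed under 0.5 CPM in both clf-29swn-21 libraries.

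Each of the 8 seed genes rose, but EM6, AT3G22490 and ECP31 passed the filter only through the clf-29swn-21 libraries. EM1 was at 763 and 1642 CPM in clf-29swn-21 against 0.0282 and 0.187 CPM in Col-0, a ratio of pooled counts of 12500 (95% counting interval 5357 to 38510, edgeR adjusted p = 0.000829). EM6 was at 177 and 308 CPM against 0.0845 and 0 CPM, a ratio of 4302 (1472 to 20860, from 3 Col-0 counts). Neither gene reached 1 CPM in any library outside atring1a,b and clf-29swn-21. M17 had no count in Col-0 and was at 324 and 467 CPM in clf-29swn-21, at least 7180-fold higher (floor of 3 counts over both Col-0 libraries, adjusted p = 0.000798). Its neighbour M10, which lies 1998 bp away on the same strand, was at 10.2 and 8.51 CPM against 0.0282 and 0.374 CPM (ratio 60.5, 31.6 to 133, adjusted p = 0.00828), so the AtM pair rose to unlike extents. ECP63, a LEA_4 gene of the seed group, was at 286 and 690 CPM against 0.169 and 0.187 CPM (ratio 2507, 1363 to 5228, adjusted p = 0.000926). Intervals of this kind cover counting error only.

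The SMP genes of the seed group, whose products accumulate late in seed filling, also rose. AT3G22490 and ECP31, which lie 781 bp apart on chromosome 3, were at 62.1 and 116 CPM and at 20.8 and 28.1 CPM in clf-29swn-21 with no count in Col-0, at least 1569-fold and 447-fold higher. RAB28, the seed gene with low expression in Col-0, was at 35.5 and 67.0 CPM against 1.80 and 0.888 CPM (log2 fold change 5.04 ± 0.83 SE, adjusted p = 0.00179). In both clf-29swn-21 libraries each of these 8 genes lay above every other library. The upstream windows differ among the genes that rose: EM6 carried 3 ABRE cores and M17 none, as printed above.

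Among silent members outside the textbook seed group, 19 were tested and 18 of them rose. AT2G42560, AT2G18340, AT3G53040 and AT5G53270 among them passed the filter only through the clf-29swn-21 libraries. AT1G72100, AT3G17520, AT4G21020 and AT5G44310 passed only through those of clf-29swn-21 and atring1a,b. The largest ratio was that of AT3G17520, a LEA_4 gene, at 952 and 1481 CPM against 0.0282 and 0.0467 CPM (ratio 32840, 9090 to 271100, from 2 Col-0 counts). AT4G21020 followed (443 and 933 CPM against 0.0563 and 0 CPM, ratio 17920, 4961 to 148000), then AT2G42560 (205 and 417 CPM against 0.0282 and 0 CPM, ratio 16260, 2918 to 642300). These 3 LEA_4 genes rest on 1 or 2 Col-0 counts, so their ratios are known only to their wide intervals. The dehydrin XERO1, a neighbour of LTI30 at 313 bp, had no count in Col-0 and was at 136 and 206 CPM, at least 3090-fold higher (adjusted p = 0.00033). LEA18, a LEA_1 gene, was at 442 and 828 CPM against 0.0282 and 0.0935 CPM (ratio 11180, 3826 to 54230, adjusted p = 0.000192). AT4G38410, a dehydrin gene at 1.15 and 0.0579 CPM against 0.225 and 0.421 CPM, was the tested silent member that did not pass (log2 fold change 0.78, adjusted p = 0.589).

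By class, 12 of the 15 tested LEA_4 genes rose and 3 fell, 5 of the 10 dehydrins rose and 3 fell, and each of the 3 LEA_1, 4 tested SMP, 2 LEA_5 and 2 AtM genes rose. Of the tested SMP genes only RAB28 passed the filter without the clf-29swn-21 libraries. AT5G53270, an SMP gene, was the weakest of the silent genes that rose, at 0.716 and 2.31 CPM against 0.0845 and 0 CPM (ratio 25.2, 8.21 to 126), and it was not called with DESeq2. Because silent genes have little room to fall, the direction of this class follows in part from the Col-0 limit that defines it.

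The 10 stress genes split. RAB18, DI21, LTI30 and SAG21 rose, COR15B, COR47, ERD10, COR15A and ERD14 fell, and LEA14 did not pass (81.6 and 103 CPM against 92.5 and 175 CPM, log2 fold change -0.73 ± 0.33 SE, adjusted p = 0.115). RAB18 was at 748 and 1210 CPM in clf-29swn-21 against 4.36 and 28.3 CPM in Col-0 (log2 fold change 5.72 ± 1.06 SE, adjusted p = 0.00337). DI21, a LEA_3 gene induced by drought, was at 571 and 659 CPM against 36.8 and 19.4 CPM (4.26 ± 0.37, adjusted p = 0.00011). The cold-induced dehydrin gene LTI30 was at 224 and 150 CPM against 14.7 and 28.7 CPM (2.91 ± 0.70, adjusted p = 0.0115). SAG21, a LEA_3 gene of senescing leaves and roots, was at 484 and 447 CPM against 107 and 115 CPM (1.88 ± 0.33, adjusted p = 0.00256). For these 4 genes the groups did not overlap. Over the family, 36 members had both clf-29swn-21 libraries above both Col-0 libraries (38.0% of all genes with a count) and 6 had both below (19.5%).

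Of the 6 genes that fell, the 5 of the stress group are known from cold acclimation or dehydration. COR15B was at 0.680 and 0.695 CPM in clf-29swn-21 against 59.5 and 194 CPM in Col-0 (log2 fold change -7.72 ± 0.62 SE, adjusted p = 9.6e-05), the lowest values of this gene in any library. COR15A was at 29.5 and 25.8 CPM against 179 and 190 CPM (-2.93 ± 0.39, adjusted p = 0.000612). The dehydrin gene COR47 was at 121 and 45.1 CPM against 639 and 949 CPM (-3.46 ± 0.51, adjusted p = 0.00106). ERD10, its neighbour at 1029 bp, was at 71.1 and 47.2 CPM against 679 and 447 CPM (-3.45 ± 0.62, adjusted p = 0.00279). ERD14, another acidic dehydrin gene, was at 188 and 101 CPM against 340 and 473 CPM (-1.69 ± 0.31, adjusted p = 0.00293). The sixth gene that fell, UNE15, was a low member (0.787 and 0.810 CPM against 2.22 and 7.43 CPM, -2.78 ± 0.60, adjusted p = 0.00732). COR15B shares 468 bp with a gene on the opposite strand, RAB18 shares 11 bp, and whether counting used strand is not given in the sources used here, so reads of such pairs may not be separable.

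**Figure D2:**
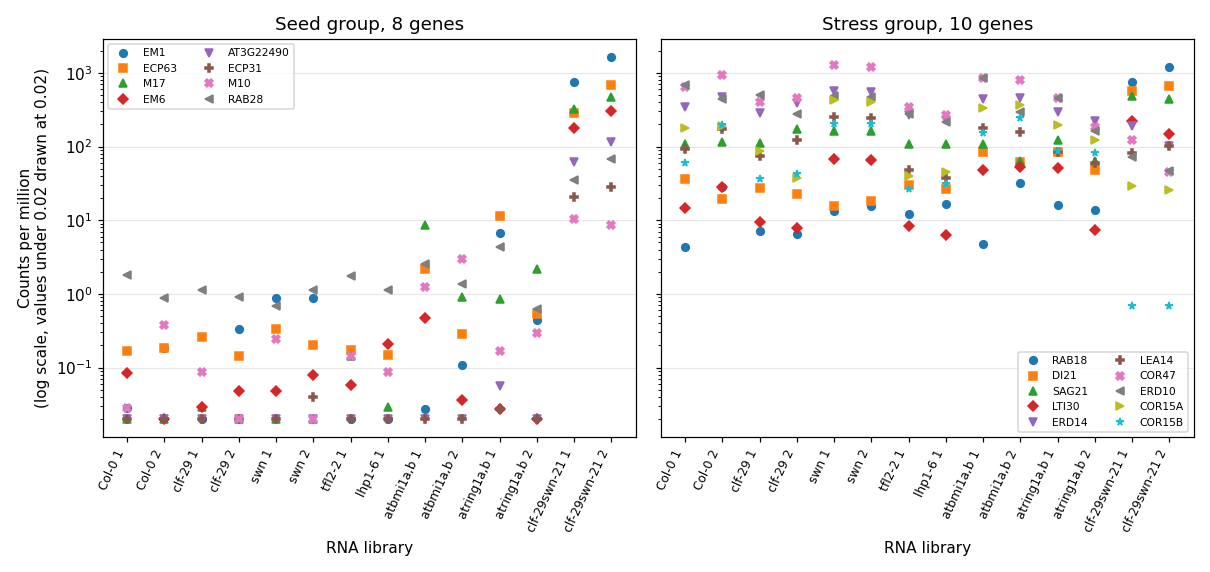
CPM on a log scale in each of the 14 RNA libraries for the 8 seed genes (left) and the 10 stress genes (right), 1 symbol per gene and library, with values under 0.02 drawn at 0.02. The seed genes stand at 8.51 CPM or more in both clf-29swn-21 libraries and the stress genes divide there, from 0.680 CPM for COR15B to 1210 CPM for RAB18.

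The named regulators moved as follows in clf-29swn-21. Of the 10 seed regulators, 9 rose by the adjusted rule with log2 fold change above 1, ABI3 among them (225 and 249 CPM with no count in Col-0, adjusted p = 0.000371). ABI5, the basic leucine zipper factor of the abscisic acid response, was at 188 and 280 CPM against 0.563 and 13.3 CPM (adjusted p = 0.0326). Of the 8 stress regulators none rose and 2 fell, CBF1 (1.04 and 0.116 CPM against 0.676 and 15.6 CPM, adjusted p = 0.044) and ABF2 (log2 fold change -1.24, adjusted p = 0.00589). Among 6 stress targets that are not LEA genes, RD29B (638 and 1140 CPM against 0.479 and 2.80 CPM, adjusted p = 0.00102) and KIN1 (136 and 237 CPM against 5.97 and 28.2 CPM, adjusted p = 0.0164) rose. CBF1 varied so widely between the Col-0 libraries that in clf-29swn-21 1 it was above Col-0 1.

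Levels of root and leaf marker genes also differed in clf-29swn-21. The summed level of 12 root marker genes was 3504 and 1696 CPM in clf-29swn-21 against 249 to 933 CPM in the other 12 libraries, and that of 6 leaf markers was 3424 and 5121 CPM against 13320 to 17080 CPM. Nearly the whole root sum was PYK10, a glucosidase of roots and hypocotyls (3442 and 1681 CPM). The Casparian strip gene CASP1 was at 15.5 CPM in replicate 1 and 0.752 CPM in replicate 2, and BRN2 had no read outside clf-29swn-21. Of 8 root markers tested, 5 rose by the adjusted rule. In replicate 2, however, CASP2 (0.347 CPM) and CASP4 (0.174 CPM) lay below Col-0 2 (1.26 and 0.187 CPM). The other root markers lay above both Col-0 libraries in replicate 2. SMB was at 13.4 and 10.4 CPM in replicates 1 and 2 with no count in Col-0. MYB36 was at 4.72 and 1.04 CPM against 0.0845 and 0.0935 CPM in Col-0. The summed silent LEA level was higher in replicate 2 (13430 CPM, against 7542 CPM in replicate 1), the library with the lower root sum, and 26 of the 29 silent members with 10 or more counts were higher in replicate 2. The part of organ content and of growth medium in the LEA changes was not tested, and in bulk tissue fewer cells of a type and less RNA per cell cannot be told apart.

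**Figure D3:**
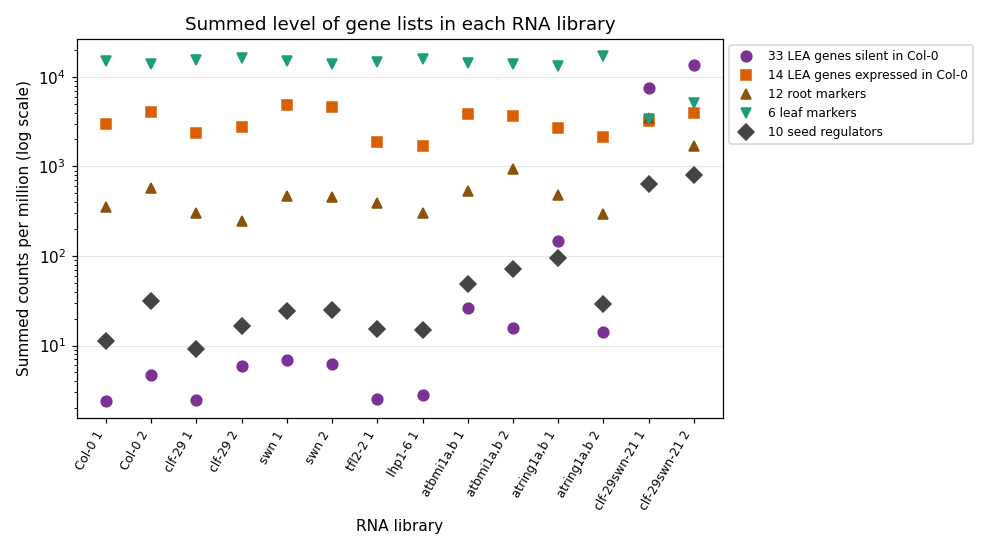
Summed CPM on a log scale in each of the 14 RNA libraries for the 33 silent and 14 expressed LEA genes, 12 root markers, 6 leaf markers and 10 seed regulators. The silent LEA sum goes from 2.42 CPM in Col-0 1 to 13430 CPM in clf-29swn-21 2, and the expressed LEA sum stays between 1682 and 4863 CPM.

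Against clf-29 in place of Col-0, clf-29swn-21 gave the same counts, 32 members higher and 6 lower by the adjusted rule (13.9% and 14.1% of all genes). The median was 8.96, or 8.61 with the 5 genes that had no count in clf-29 at their bound, against 0.06 over all genes. EM1 was at 0 and 0.338 CPM in clf-29, RAB18 at 7.20 and 6.56 CPM (log2 fold change 6.98 ± 1.13 SE, adjusted p = 0.00165) and COR15B at 36.0 and 42.7 CPM (adjusted p = 0.000188). COR15A differed least of the genes that fell, at 87.9 and 36.9 CPM in clf-29 (-1.36 ± 0.37, adjusted p = 0.0187), and without clf-29 1 it was no longer called. Both comparisons use the same clf-29swn-21 libraries, so they are not independent. Both also include the members that passed the filter only through those libraries. Both clf-29swn-21 libraries lay above both clf-29 libraries for 35 members (41.2% of all genes with a count) and below for 7 (23.1%).

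In the libraries labelled atring1a,b a smaller rise of silent LEA genes was seen, mostly in replicate 1. By the study's criterion 19 members were called higher and 1 lower against Col-0 (5.01% and 2.6% of all genes), 16 of the 19 from the silent class. Only LEA18 and AT3G15670 rose by the adjusted test with edgeR, both at adjusted p = 0.0334 (1.24% of all genes were higher and 0.136% lower by that rule). DESeq2 gave 16 by its adjusted p, beside 595 of all 22060 genes higher and 212 lower. The edgeR count of 2 was 1 with the replicate number as a block, beside 267 of all genes higher. It was 0 with the 4 compared libraries fitted alone, where 0 of 20467 genes were higher. The median log2 fold change was 1.12 over the 44 members, against -0.01 over all tested genes. It was -0.15 without atring1a,b 1, 1.265 without atring1a,b 2, 1.90 without Col-0 1 and 1.227 without Col-0 2. LEA18 was at 10.7 and 1.21 CPM against 0.0282 and 0.0935 CPM in Col-0 (ratio of pooled counts 138, 46.8 to 670). AT3G15670, a LEA_4 gene, was at 16.6 and 2.42 CPM against 0.338 and 0.140 CPM (ratio 43.5, 26.2 to 78.2). In both genes each atring1a,b library was above each Col-0 library.

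The other members called higher in atring1a,b were M17, ECP63 and EM1 of the seed group, DI21 of the stress group, the low genes AT3G02480 and AT2G46140, and LEA6, LEA7, LEA4-5, XERO1, AT2G21490, AT1G72100, AT2G42560, AT3G17520, AT4G21020, AT4G36600 and AT5G44310. Among these, AT2G42560 passed the filter only through clf-29swn-21. AT1G72100, AT3G17520, AT4G21020 and AT5G44310 passed only through clf-29swn-21 and atring1a,b, so their calls here are description. EM1 was at 6.62 and 0.436 CPM (ratio 49.7, 21.0 to 155, adjusted p = 0.201), ECP63 at 11.5 and 0.532 CPM (ratio 42.9, 23.1 to 90.1, adjusted p = 0.161), and M17 at 0.858 and 2.18 CPM (at least 25.4-fold higher, adjusted p = 0.18). M17 was higher in replicate 2, whereas EM1 and ECP63 were higher in replicate 1. EM6, AT3G22490 and ECP31 had 1 to 2 counts over both atring1a,b libraries and were not detectably higher at this depth. COR47 was the member called lower, at 449 and 186 CPM against 639 and 949 CPM (log2 fold change -1.43 ± 0.47 SE, adjusted p = 0.256).

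The replicates of atring1a,b lay far apart for this family. The silent sum was 147.5 CPM in replicate 1 and 13.99 CPM in replicate 2, a ratio of 10.55, and of the 21 silent members with 10 or more counts 19 were higher in replicate 1. Each of the 10 stress genes was also higher in replicate 1, with a ratio of summed CPM of 1.90. The seed regulators moved with this gap: their sum was 95.3 CPM in replicate 1 and 29.2 CPM in replicate 2, and ABI3 was at 27.1 and 4.40 CPM. Of these regulators 7 were called higher in atring1a,b and FUS3, ABI3 and ABI4 rose by the adjusted test. Without atring1a,b 1 the median log2 fold change of the members was -0.15, against -0.01 over all genes. Over members, 19 had both atring1a,b libraries above both Col-0 libraries (18.7% of all genes with a count) and 5 had both below (8.52%), and 17 of the 19 called higher were among the former.

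In the libraries labelled atbmi1a,b, 8 members were called higher and 0 lower against Col-0 (3.97% and 1.53% of all genes). None rose or fell by the adjusted test with edgeR (0.825% and 0.136% of all genes). DESeq2 gave 4 higher by its adjusted p, beside 420 of all 22060 genes higher and 116 lower. The median log2 fold change was 0.42, against -0.04 over all tested genes. M17 was at 8.67 and 0.903 CPM with no count in Col-0, at least 100.6-fold higher (adjusted p = 0.0923), and XERO1 at 0.967 and 1.34 CPM, at least 21.4-fold higher (adjusted p = 0.134). The dehydrin AT4G39130 was at 1.27 and 1.26 CPM against 0.0282 and 0 CPM (ratio 72.1, 12.6 to 2884, from 1 Col-0 count, adjusted p = 0.234). M10, LEA6, LEA18 and the dehydrin AT2G21490 had ratios from 11.4 to 20.5, and DI21 was at 84.8 and 61.2 CPM against 36.8 and 19.4 CPM (log2 fold change 1.31 ± 0.33 SE, adjusted p = 0.143). Each of the 8 had both atbmi1a,b libraries above both Col-0 libraries, as did 19 members in all (13.8% of all genes with a count), and 4 members had both below (7.96%). EM1 was at 0.0276 and 0.108 CPM, overlapping Col-0.

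Set against each other, atring1a,b had 10 members called higher than atbmi1a,b and 7 called lower (3.64% and 2.91% of all genes), none by the adjusted test with edgeR (0.118% and 0.0363% of all genes). DESeq2 gave 6 and 1 by its adjusted p, beside 218 of all 22060 genes higher and 199 lower. The libraries did not overlap for 11 members higher (20.3% of all genes with a count) and 9 lower (16.4%). EM1 (log2 fold change 5.68 ± 1.54 SE, adjusted p = 0.273) and AT3G17520 (4.90 ± 1.27) were among those higher in atring1a,b. M10 (-3.25 ± 1.13, adjusted p = 0.355), EM6, AT4G39130, LEA14, COR47, COR15A and COR15B were those lower. As each of the 10 genes called higher had its larger value in atring1a,b 1, the count rests on that library. Without it the median log2 fold change of the members was -0.79, against -0.05 over all genes.

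Loss of CLF alone left the silent class near its Col-0 level. The silent sum was 2.44 and 5.89 CPM in clf-29, 1 member was called higher and 2 lower against Col-0 (1.99% and 0.562% of all genes), and none passed the adjusted test with edgeR (0.0227% and 0.00453% of all genes). DESeq2 gave 1 and 1, beside 81 of all 22060 genes higher and 11 lower. The median log2 fold change was -0.21 against -0.02 over all genes, and it was 0.27 without Col-0 2 and 0 without Col-0 1. AT2G46140, a LEA_2 gene, was at 7.06 and 9.22 CPM against 4.14 and 2.71 CPM (1.22 ± 0.27 SE, adjusted p = 0.549). COR15A was at 87.9 and 36.9 CPM against 179 and 190 CPM (-1.58 ± 0.37, adjusted p = 0.549) and COR15B at 36.0 and 42.7 CPM against 59.5 and 194 CPM (-1.72 ± 0.46, adjusted p = 0.758). Both clf-29 libraries lay above both Col-0 libraries for 7 members (12.2% of all genes with a count) and below for 6 (8.71%). The median over all genes was 0.04 without Col-0 1 and 0 without Col-0 2.

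In the LHP1 mutants 5 of the 10 stress LEA genes were called lower than in Col-0 by the study's criterion. No other member was called in either direction (2.01% of all genes were higher and 1.93% lower), with 0 by the adjusted test of edgeR (0.0816% and 0.0181% of all genes). DESeq2 gave 3 lower by its adjusted p, beside 137 of all 22060 genes higher and 106 lower. The median log2 fold change was -0.60 against -0.02 over all genes. COR15A was at 39.4 CPM in tfl2-2 and 45.3 CPM in lhp1-6 (-2.19 ± 0.37 SE, adjusted p = 0.0925) and COR15B at 26.7 and 31.3 CPM (-2.19 ± 0.47, adjusted p = 0.202). LEA14 was at 47.8 and 37.95 CPM (-1.71 ± 0.33, adjusted p = 0.155), COR47 at 344 and 264 CPM and LTI30 at 8.29 and 6.20 CPM. SAG21 (log2 fold change -0.10 ± 0.32 SE), DI21 (-0.05 ± 0.32) and RAB18 (-0.25 ± 0.88) were among the 5 stress genes not called. For each of the 5 genes both LHP1 lines were below both Col-0 libraries, as they were for 11 members in all (9.79% of all genes with a count), with 6 above (20.1%). CBF1, a known activator of cold-induced LEA genes, was at 0.287 and 0.118 CPM against 0.676 and 15.6 CPM in Col-0, and CBF2 at 0.66 and 0.441 CPM against 2.20 and 11.5 CPM. DREB2A, a factor of drought responses, was at 0.66 and 0.794 CPM against 0.845 and 17.1 CPM. These 3 genes were called lower by the study's criterion, with adjusted p of 0.381, 0.375 and 0.821. For these genes the LHP1 lines lay closer to Col-0 1, labelled 21 °C as they are, than to Col-0 2, labelled 22 °C. The library clf-29 2, also labelled 22 °C, was at 0.483 CPM for CBF1, 0.82 CPM for CBF2 and 12.8 CPM for DREB2A. What sets these levels was not tested. The silent sum was 2.53 and 2.79 CPM. The median log2 fold change was -0.18 without Col-0 1, against 0 over all genes, and -0.33 without lhp1-6, against -0.05 over all genes.

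In the libraries labelled swn, 3 members were called higher and 0 lower against Col-0 (1.84% and 1.06% of all genes), and none passed the adjusted test of edgeR (0.0% of all genes in either direction). None passed that of DESeq2 either, beside 36 of all 22060 genes higher and 7 lower. The libraries did not overlap for 18 members higher (19.6% of all genes with a count) and 7 lower (14.2%). LTI30 was at 67.7 and 66.0 CPM (log2 fold change 1.61 ± 0.67 SE), COR15A at 430 and 402 CPM (1.16 ± 0.36) and AT2G18340, a LEA_4 gene, at 0.435 and 0.321 CPM (1.98 ± 0.87), each with adjusted p = 0.868. With both swn libraries summed to 1 sample, 1 member was called. CBF1 and CBF2, at 13.0 and 11.8 CPM and at 22.0 and 20.4 CPM in swn, were closer to Col-0 2 (15.6 and 11.5 CPM) than to Col-0 1 (0.676 and 2.20 CPM). The swn libraries share the 22 °C of Col-0 2. So do clf-29 2, atbmi1a,b 2, atring1a,b 2 and clf-29swn-21 2, with CBF1 at 0.116 to 3.83 CPM and CBF2 at 0.463 to 2.71 CPM. The cause of these CBF levels was not tested. With a term for growth temperature 2 members were called. The median log2 fold change of the members was 0.08 without Col-0 1 and 0.56 without Col-0 2, against 0 over all genes in both. It was 0.16 without swn 1 and 0 without swn 2, against -0.02 and -0.03 over all genes.

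**Figure D4:**
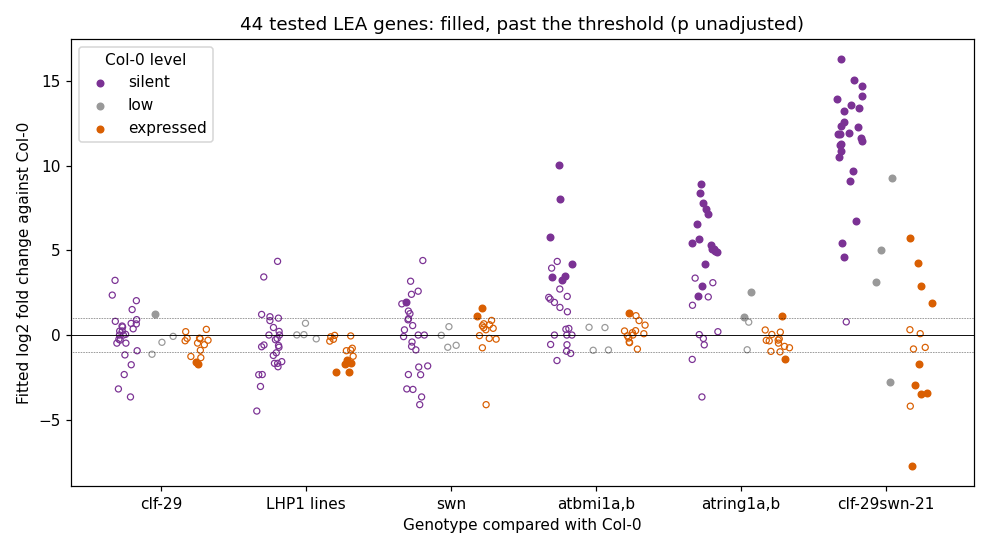
Fitted log2 fold change against Col-0 of the 44 tested LEA genes in the 6 other groups, 1 point per gene, coloured by Col-0 level class. Filled points passed an absolute log2 fold change of 1 (dotted lines) with unadjusted p under 0.05. Filled silent genes lie above the line in atbmi1a,b (7), atring1a,b (16) and clf-29swn-21 (25), and values of genes with no Col-0 count depend on the fit's prior count.

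H3K27me3 peaks lay over most of the silent members in the first Col-0 list and over fewer in the second. A gene was counted as marked where a peak shared 1 bp or more with the region from 1000 bp upstream of its start to its end. In Col-0, 31 of 51 members were marked in list 1 (21.4% of all 32835 annotated genes) and 19 in list 2 (15.6%). In both lists 18 members were marked, beside 4124 of all annotated genes. By class, 27 of 33 silent members were marked in list 1 and 16 in list 2, against 28.9% and 18.5% of all genes silent in Col-0. Of the 14 expressed members, 3 were marked in each list, against 12.5% and 11.8% of all expressed genes. The seed group had 7 of 8 genes marked in list 1 and the stress group 2 of 10, RAB18 and LTI30.

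Several of the genes named above carried peaks in every genotype examined. EM1 had a peak in each of the 10 lists, with a score of 576 and 340 in the Col-0 lists, where the score is MACS's scaled negative log10 of its p-value and depends on the depth of the list. Its Col-0 1 peak, chr3:19214275-19215856, covered the whole gene and the upstream window printed above. RAB18 was also marked in all 10 lists (839 and 197 in Col-0), from chr5:26515807-26519838 in Col-0 1, and EM6 too (217 and 129), from chr2:16779338-16782062. The other members in all 10 lists were LEA18, AT2G03740, AT5G53260 and AT5G53270, the last 2 under 1 shared peak. AT5G53260 stayed at 0.0358 and 0.0579 CPM in clf-29swn-21 while its neighbour AT5G53270, 596 bp away, reached 0.716 and 2.31 CPM.

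Across all lists, 38 members were marked in at least 1 and 13 in none. Single lists marked 10.4% to 35.9% of all genes. The share of all genes marked in at least 1 list, or in all 10, was not counted, so these numbers do not set the family apart. The unmarked members were AT1G02820, COR47, ERD10, ERD14, HIRD11, AT2G44060, SAG21, DI21, RAB28, AT3G02480, LEA4-5, AT2G33690 and AT5G27980. Marking in these lists and a rise in clf-29swn-21 RNA did not coincide throughout: RAB28, AT3G02480, LEA4-5, SAG21 and DI21 rose with no peak in any list, and AT2G03740, AT2G03850, AT3G53770 and AT5G53260 were marked in both Col-0 lists but were too low for the test. None of the 6 genes that fell was marked in Col-0 list 1. That list marked 12.5% of all expressed and 23.6% of all low genes, so this does not set these few genes apart. COR15A had a peak in Col-0 list 2 that lay upstream and covered 0% of the gene body.

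**Figure D5:**
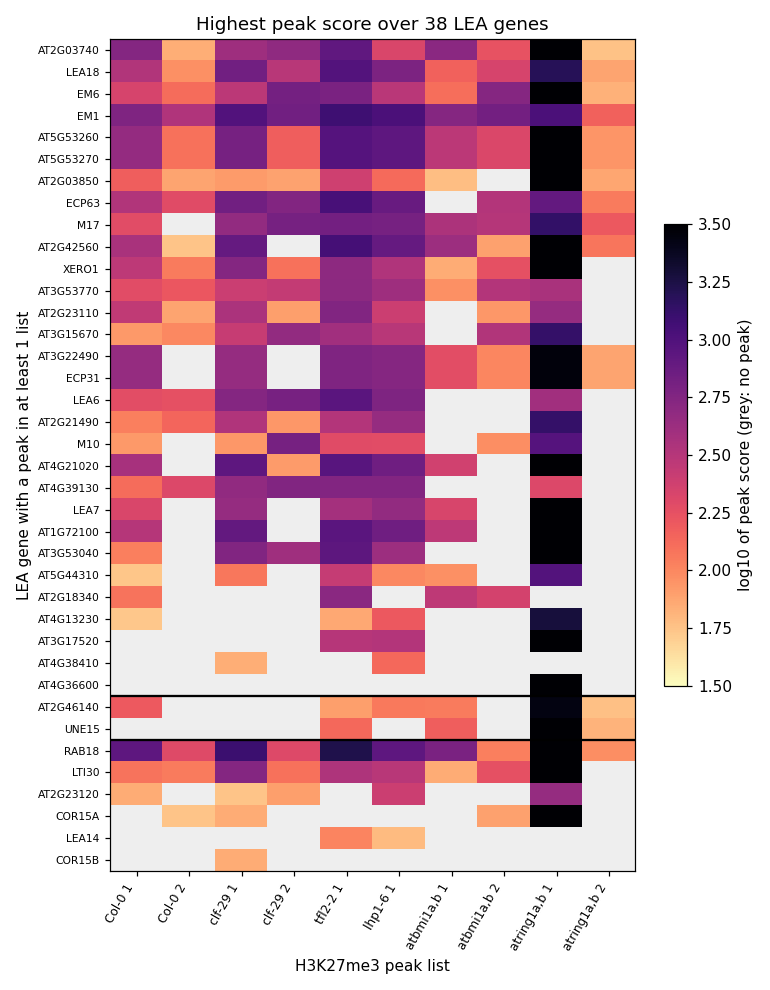
Highest H3K27me3 peak score over each of the 38 LEA genes marked in at least 1 of the 10 peak lists, as the colour of log10 of the score, with grey for no peak. Black lines divide genes silent, low and expressed in Col-0. RAB18 and 6 silent genes are marked in every column, and the atring1a,b 1 column reaches the score limit of 3100 for 17 genes.

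Marking in the single and double mutants was counted list by list. In clf-29, 31 and 22 members were marked (21.3% and 22.7% of all genes), in tfl2-2 33 (26.8%), in lhp1-6 33 (23.4%), in atbmi1a,b 22 and 20 (17.8% and 19.1%) and in atring1a,b 34 and 15 (35.9% and 10.4%). The atring1a,b lists differed most, and scores in list 1 reached the limit of 3100 for 17 members, so no level can be read from them. LEA6, AT2G21490 and AT4G39130 were marked in both Col-0 lists and in neither atbmi1a,b list, 3 of 18 members, beside 11.1% of 4124 genes marked in both Col-0 lists. Scores over LEA6 were 184 and 180 in Col-0 and 551 and 630 in clf-29, and those over AT2G21490 were 109 and 138 in Col-0. These 3 genes were among the 8 called higher in atbmi1a,b RNA, beside 21.3% of the 371 tested genes that lost their peaks in this way. Of the 11 tested members that kept a peak in at least 1 atbmi1a,b list, 2 were called higher, beside 9.97% of 2386 such genes. No member was lost from both lists of clf-29 (7.18% of all such genes), of the LHP1 lines (4.44%) or of atring1a,b (2.21%).

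Peaks absent from both Col-0 lists appeared over LEA14 and AT3G17520 in both LHP1 lines (3.85% of the 24799 genes marked in neither Col-0 list), and over UNE15 in both atring1a,b lists (0.726%). LEA14 was called lower in the LHP1 lines, while AT3G17520 was at 0.0574 and 0.0294 CPM there and at 0.0282 and 0.0467 CPM in Col-0. M17, which was marked in Col-0 list 1 but not in list 2, had a peak in both atbmi1a,b lists (350 and 320) and was called higher in the RNA of that genotype. EM1 had a peak in both atbmi1a,b lists too (542 and 664). H3K27me3 of clf-29swn-21, the genotype with most of the RNA changes, was not analysed here.

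Motif content of the upstream windows differed between the Col-0 classes. The ABRE core was present in 27 of 33 silent members (81.8%), 3 of 4 low members (75.0%) and 6 of 14 expressed members (42.9%). The RY core was present in 8 of 33 silent members (24.2%) and 1 of 14 expressed members (7.14%), against 8.83% of all genes. A CRT/DRE core was present in 13 of 33 silent (39.4%) and 4 of 14 expressed members (28.6%), against 12.2% of all genes. Of the 8 seed genes 6 held an ABRE core and of the 10 stress genes 5 did. LTI30 held 3 CRT/DRE matches and no ABRE match, COR15B held none of the motifs, and its paralog COR15A held 2 ABRE and 2 CRT/DRE matches. A match is a run of letters and not evidence that a factor binds there.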

How the data were processed

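RNA was sequenced in 14 libraries and H3K27me3 immunoprecipitates in 10, with 5 no-antibody controls not analysed here. RNA reads were mapped by the authors with TopHat (TAIR10), and the deposited HTSeq counts are whole numbers of reads per gene, not normalized. Rows that name no gene (2.66 to 3.43% of reads) were left out. Peaks were called by the authors with MACS on each library against a control, after alignment with BWA, and the deposited score is MACS's score, which depends on depth. A deposited table of the authors' own fold changes and p-values was not used.

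The family and the gene lists were chosen with earlier results of these data known, although membership itself uses structural class and the groups textbook knowledge, not a measured value. All 51 members may be named. Values were given in the libraries compared. They cover up to 8 members per comparison with the largest changes among those past the adjusted threshold, and the seed and stress groups. Other members were given with values where a call or its absence is described, also where none passed the adjusted threshold. The mutated genes and regulator lists stand beside them. Counts were fitted in 1 model of 7 groups with edgeR 4.0.16 in R 4.3.3 (TMM, filterByExpr, quasi-likelihood test), p-values were adjusted over 22060 genes by the Benjamini-Hochberg method, and DESeq2 1.42.0 was an alternative, with each other alternative described in the closing section. CPM are relative to all gene counts of a library. Ratios of pooled counts carry exact 95% counting intervals, with a floor of 3 counts over a group at 0. Peaks were assigned with 1000 bp upstream. Scripts were tested on simulated data. The reference is RefSeq's TAIR10.1, which holds 32835 of the 33602 genes and shares the chromosome coordinates of TAIR10. Protein sequences were not used here.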

Additional observations from a re-analysis of the deposited data

How the results depend on the processing

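With clf-29swn-21 against Col-0, 37 of the 38 called members were called in each of 12 settings, and against clf-29 37 of 38 were. In atring1a,b 7 of 20, in atbmi1a,b 2 of 8, in the LHP1 lines 3 of 5, in clf-29 1 of 3, in swn 0 of 3 and in atring1a,b against atbmi1a,b 2 of 17 were called in every setting. Leaving out each library in turn gave 1 to 6 members called in clf-29, 3 to 9 in the LHP1 lines, 6 to 9 in atbmi1a,b, 12 to 23 in atring1a,b, 1 to 8 in swn, 38 to 39 in clf-29swn-21, 37 to 39 against clf-29, and 8 to 19 in atring1a,b against atbmi1a,b. The number of all genes called also moved between these fits, each of which leaves 1 library in a group. Marked members ranged from 19 to 31 in Col-0 and from 15 to 34 in atring1a,b by list, against 18 and 15 in both lists.

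With DESeq2, 5 members were called in swn (460 of all 22060 genes higher and 389 lower). A batch term for the correlated replicate 2 libraries and a sum of both swn libraries were chosen after seeing the data. The batch term gave 13 called members in atbmi1a,b (1046 of all 22060 genes higher and 511 lower) and 7 in swn (1825 genes higher and 1564 lower). With the sum, which leaves 1 swn sample, the median log2 fold change of the members was 0.16, against -0.02 over all genes. The batch term left 10 members past the adjusted test in atring1a,b, beside 535 of all genes higher and 141 lower. With peaks scoring 100 or more, 4 members were marked in both atring1a,b lists. Leaving out single libraries gave log2 fold changes from -0.48 to 3.44 for AT3G02480 and from -0.33 to 3.96 for LEA4-5 in atring1a,b against Col-0, and from -0.89 to 4.39 for AT2G42560 and from -1.66 to 5.11 for AT5G44310 against atbmi1a,b, each reversed without atring1a,b 1. The cause of these differences was not tested.

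Replicate numbers are shared by the groups but did not pair the samples throughout (correlations of deviations from -0.14 to 0.83). With the replicate number as a block, 3 members were called in clf-29, 6 in the LHP1 lines, 8 in atbmi1a,b, 21 in atring1a,b, 2 in swn, 38 in clf-29swn-21 against either Col-0 or clf-29, and 16 in atring1a,b against atbmi1a,b. Each group had 2 libraries, and 7 members had too few counts to be tested.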
